A study of Mus musculus with 3 samples.

Results

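Solute carriers are membrane proteins that move ions, sugars, amino acids, transmitters, metals and vitamins across the plasma membrane and the membranes of organelles. They are named by family, and the number after Slc gives the family. In the retina they clear and repackage transmitters, feed glucose and lactate to photoreceptors, supply taurine and creatine, and set ion and pH gradients. The carriers described here are the probe sets of a mouse oligonucleotide array, without controls, that the platform annotation pairs with 1 gene symbol beginning Slc and a digit, leaving out Slc6a9. This gave 150 of 8251 named genes, in 40 families, read by 184 of 12422 probe sets. Most of these genes encode carriers or carrier subunits, but Slc4a1ap, Slc9a3r1 and Slc9a3r2 encode proteins named after a carrier that are not carriers themselves. A further probe set, paired with 2 carrier symbols, was left out.

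Total RNA was taken from neural retinas at postnatal day 10, from wild-type mice on a background mixed from 129/SvEv and C57BL/6. The mice were littermates of Rp1-/- animals, which were not analysed here. The samples were 3 pools, each of 3 to 4 mice, collected between 1 and 2 pm, and each was read on 1 Affymetrix U74Av2 array. Pools are numbered 1 to 3 only to name them. Rp1 stands in the titles of pools 2 and 3, and the grouping as wild type was taken from the descriptions. With 1 group there is no comparison between conditions and no test. The spread between pools is the only error measured, and it takes in mice, tissue collection and array together. The labels leave unsaid whether 1 mouse could have contributed to several pools.

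The deposited value is a linear signal per probe set, with 1 value per array. Signals of different probe sets depend on their own probes and are not set against each other as amounts. A probe set was called above background on an array when its signal passed a limit of 419, 468 and 358 in pools 1, 2 and 3. Each limit is the 90th percentile of 86 probe sets that read 68 genes made elsewhere, in tissues such as liver, pancreas, muscle and germ cells, so some of those sets lie above it by construction. A gene below the limit is not above background, which does not mean that it is silent. The pools differed in marker genes of other tissue. Summed over 7 measured lens genes the signal was 99301, 15618 and 248553 in the 3 pools, and over 4 red blood cell genes it was 21831, 4542 and 14885. Rod markers summed to 56512, 61947 and 87356 over 5 genes, all above background on every array. Of 5 pigment epithelium markers, 4 were above background on no array, and the astrocyte markers Gfap and S100b were above it on none. Such differences in a mixed tissue cannot separate fewer cells of a type from less RNA per cell.

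Of the 184 carrier probe sets, 49 (26.6%) were above background on all 3 arrays, against 29.4% of all 12422 probe sets. On no array were 103 (56%), against 56.9% of all probe sets, and the other 32 passed the limit on 1 or 2 arrays. Carriers were thus above background about as often as the array as a whole. Taking the probe set with the highest mean for each gene, 48 of 150 carrier genes (32%) were above background on every array, 25 on some and 77 (51.3%) on none, beside 36.1% of 8251 named genes above it on all and 48.5% on none. The count of carrier genes depended on the limit and was 78 with the limit at the 75th percentile of the same restricted sets. The count over all named genes at that limit was not made. Substrate classes, assigned from family names, ranged from 10 of 20 genes for mitochondrial carriers and 9 of 17 for metal carriers to 7 of 30 for carriers of organic solutes and vitamins and 2 of 13 for sugars and monocarboxylates. No test was made between classes.

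**Figure D1:**
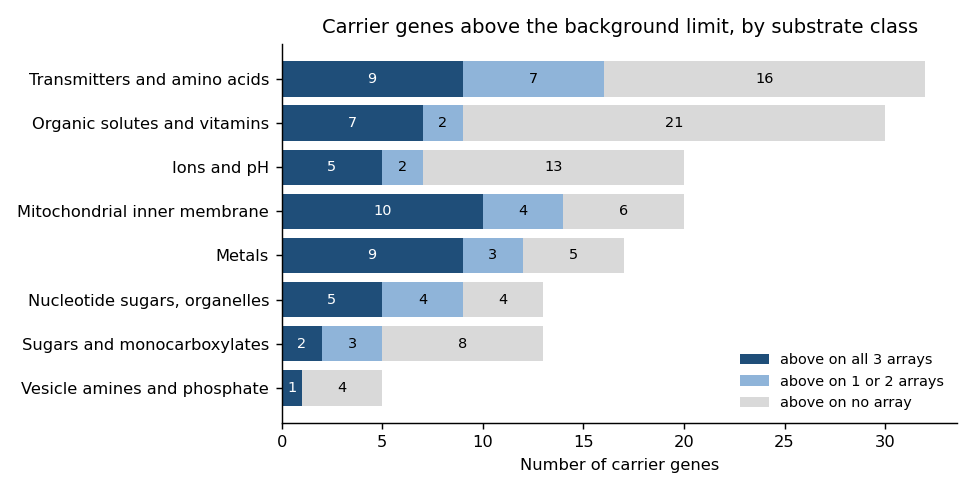
Number of carrier genes (horizontal axis) in each of 8 substrate classes, split by the number of arrays on which the representative probe set was above the background limit. Mitochondrial carriers had 10 of 20 genes above it on all 3 arrays, and organic solute carriers 7 of 30.

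Transmitter and amino acid carriers made up 32 genes, of which 9 were above background on every array, 7 on some and 16 on none. The widest spread of any carrier above background on every array was that of Slc6a6, which takes up taurine, an amino acid abundant in photoreceptors. Its signal was 1626, 2471 and 5939 in pools 1, 2 and 3, a 3.65-fold range with an SD of 0.95 on the log2 scale (n = 3). Pool 3 stood far above the other two. A second Slc6a6 probe set was also highest in pool 3, at 169.9, 182 and 376, but passed the limit only there. Slc6a8, the creatine carrier, read 964, 729 and 745 and was highest in pool 1. Slc32a1, which loads GABA and glycine into synaptic vesicles, read 1191, 1427 and 1988, lowest in pool 1 and highest in pool 3. Gad1, which makes GABA, had the same order, at 1629, 2116 and 2270.1. Gad2, of the same family, was above background on no array and highest in pool 2, at 10.9, 55.6 and 15.3.

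Both chains of an amino acid exchanger built of a heavy and a light chain were measured above background. Slc3a2, the heavy chain, read 2557, 1792 and 3127, and Slc7a5, its large neutral amino acid partner, read 1851, 1344 and 1792. Each was lowest in pool 2, and their ranges were 1.74-fold and 1.38-fold. Slc7a5 was the only 1 of 9 measured Slc7 genes above background on any array. Among the others, Slc7a11, the cystine exchanger, read 139, 66.9 and 12.1 and Slc7a1, a cationic amino acid carrier, read 18.8, 46.7 and 25. The sodium-coupled neutral amino acid carriers of family 38 had 3 of 4 genes above background on every array. Slc38a5, a glutamine carrier, was close between pools at 558 ± 37.1 (SD, n = 3). Slc38a2 read 690.3, 981 and 514, highest in pool 2, and its other 3 probe sets were above background on no array. Slc38a10 was highest in pool 1 at 1457, 1039.6 and 906, and Slc1a4, which exchanges small neutral amino acids, was highest in pool 3 at 799.8, 771 and 1056.

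No measured plasma membrane carrier of glutamate, amines or GABA was above background on all 3 arrays, with Slc6a9 left out. Slc1a2, a glutamate carrier, passed the limit only in pool 1, with 446, 114 and 122. Slc1a1, the neuronal glutamate carrier, passed it only in pool 3, with 366, 345 and 424. Slc1a5 and Slc1a6 were above background in no pool. The carriers of dopamine (Slc6a3) and serotonin (Slc6a4) were above background on no array, as was Slc18a3, which loads acetylcholine into vesicles, at 31.5, 84.8 and 81.1. Of the other family 6 genes, Slc6a13, a GABA carrier, was above background in pools 1 and 3, at 568, 386 and 695. Slc6a2, the noradrenaline carrier, passed the limit only in pool 2 and its 2 probe sets read 128, 568 and 286 and 224, 317 and 338. Slc6a15, a neutral amino acid carrier of neurons, read 342, 387 and 458 and passed the limit only in pool 3.

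Of 13 genes for carriers of sugars and monocarboxylates, 2 were above background on every array, and both belong to the glucose carriers of family 2. Classes follow the family number, so Slc5a6, a vitamin carrier of family 5, is counted among the 13. Slc2a1, the glucose carrier of blood vessels and photoreceptors, read 1156, 774 and 1039 and was lowest in pool 2. Slc2a8, an intracellular member, read 688, 768 and 877. Slc2a3, the neuronal glucose carrier, passed the limit only in pool 3, and both of its probe sets did so, at 406, 408 and 578 and 316, 254 and 474. Slc2a2, Slc2a4 and Slc2a5, known from liver, muscle and gut, were above background on no array. All 3 measured Slc16 genes, which carry lactate and pyruvate, were above background on none. Slc16a8, known from the pigment epithelium, read 308, 356 and 309.7, and Slc16a1 read 101, 68.3 and 48.4. The partner that brings Slc16 proteins to the membrane, Bsg (basigin), was bright on every array at 5506, 5014 and 7163. Lactate dehydrogenase A (Ldha), which makes the lactate they carry, was closely repeated at 16382, 17183 and 17927, and Hk1, the hexokinase that traps glucose, read 4404, 5498 and 4994.

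In the ion and pH class 5 of 20 genes were above background on every array and 13 on none. Without the 3 genes that are not carriers these counts were 5 and 11 of 17. Slc4a3, an exchanger of chloride for bicarbonate, read 1506, 1089.7 and 2553, lowest in pool 2 and highest in pool 3, a 2.34-fold range. Its relative Slc4a2 read 652, 535 and 498 and was lowest in pool 3. The carbonic anhydrases that supply bicarbonate, Car2 and Car14, were above background throughout, and like Slc4a3 both were lowest in pool 2 and highest in pool 3, at 6765, 6469 and 10767 for Car2 and 1329.9, 1066 and 1480.5 for Car14. Car4, of the same family, went another way on an _f_at set, at 405, 458 and 409, with its high in pool 2, and passed the limit only in pool 3. Slc8a1, a sodium-calcium exchanger, was among the closest of all carriers, at 590.2, 641 and 627, although its other 2 probe sets were above background on no array. Slc9a8, a sodium-proton exchanger of the Golgi and endosomes, read 894, 674 and 1016. Slc12a2, which loads cells with chloride, read 908, 994 and 827 with a range of 1.20-fold. Slc12a5, which removes chloride from mature neurons, passed the limit only in pool 3, at 329, 331 and 412. Slc4a1, the anion exchanger of red blood cells, was above background on no array, at 180.5, 141 and 282, whereas the haemoglobin gene Hba-a1 read 19101, 3410.3 and 12646.

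Metal carriers had 9 of 17 genes above background on every array. Zinc importers of family 39 took part with 5 of 7 genes. Slc39a7, an importer of the endoplasmic reticulum and Golgi, read 1405, 978 and 845, Slc39a3 read 764, 502 and 424 and Slc39a1 read 1127, 736 and 758. Slc39a4, known for zinc uptake in the gut, read 1392, 1146 and 771 on a set with the _r_at suffix. All 4 were highest in pool 1, and all but Slc39a1 were lowest in pool 3. Slc39a6 was highest in pool 2, at 505, 643 and 491. The second Slc39a4 set, of the plain kind, went the other way, at 107, 174 and 367, so the order for this gene rests on which set is read. The second Slc39a1 set was above background in no pool. Over all probe sets above the limit on average, 33.9% were highest in pool 1.

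Zinc exporters were represented by Slc30a3, which fills synaptic vesicles with zinc, at 2605, 2628 and 1867, lowest in pool 3, and by Slc30a4, at 749, 817 and 862. Slc30a1, the exporter of the plasma membrane, was above background on no array. Mt2, a metallothionein that binds zinc, was closely repeated at 833, 799 and 779.5, whereas Mt1 read 533, 150.3 and 485. Slc31a1, the copper importer, was the 1 gene, of 29 with several probe sets, for which each set was above background on every array, at 881, 656 and 724 and 618, 695 and 623. Slc11a2, which imports iron and other divalent metals, read 550.5, 580.3 and 489, and its second set passed the limit only in pool 1. Tfrc, the transferrin receptor that delivers the iron, read 3268, 1827 and 2611, lowest in pool 2. Slc48a1, a haem carrier, was above background in pools 1 and 3 and not in pool 2, at 944, 366 and 751.

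Mitochondrial carriers of family 25 had 10 of 20 genes above background on every array, 4 on some and 6 on none. Slc25a4, which exchanges ATP for ADP across the inner membrane, was closely repeated at 10208, 11351 and 10680.1, a 1.11-fold range. The closely related Slc25a5 was above background on an _f_at set, a kind that can match several family members, at 1214, 1846 and 1399.5, while its plain set read 58.2, 29 and 198 and was above background in no pool. Signal for Slc25a5 is therefore uncertain. Slc25a1, the citrate carrier, stood at 981 ± 103 and Slc25a20, which brings in acylcarnitines, at 548 ± 74.3 (SD, n = 3). Slc25a36, a pyrimidine nucleotide carrier, stood at 1048 ± 69.0, and Slc25a28, an iron carrier, at 812 ± 65.6 (SD, n = 3). Their ranges were 1.14-fold and 1.17-fold. Slc25a39, a carrier of glutathione, stood at 1033 ± 122 and Slc25a17, which sits in peroxisomes, at 1459 ± 349.7 (SD, n = 3). Slc25a3, the phosphate carrier that serves ATP synthesis, passed the limit only in pool 3, at 317, 312 and 401.

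A pair of mitochondrial carriers differed more between pools. Slc25a11, which exchanges malate for oxoglutarate, read 1080.2, 1306 and 2266, lowest in pool 1 and highest in pool 3, a 2.10-fold range. Slc25a25, a calcium-regulated carrier of ATP-Mg and phosphate, read 2126, 859 and 1489.9, lowest in pool 2 and highest in pool 1, a 2.47-fold range. The dicarboxylate carrier Slc25a10 and the NAD carrier Slc25a51 were above background on 2 arrays, pools 1 and 3, at 425, 316 and 477 and 513, 438 and 545. A second Slc25a51 set, of the _f_at kind, passed the limit only in pool 2, at 174, 627 and 247.

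Carriers in the membranes of other organelles had 5 of 13 genes above background on every array. Slc37a4, which takes glucose 6-phosphate into the endoplasmic reticulum, repeated best of all 48 carrier genes above background on every array, at 806, 783 and 752, a 1.07-fold range. Slc35b1, a nucleotide carrier of the endoplasmic reticulum, stood at 2380.1 ± 362 and Slc35b2, which supplies the sulphate donor of the Golgi, at 755 ± 165 (SD, n = 3). Slc35c2 stood at 522 ± 56.6 and Slc66a2, a PQ-loop protein, at 669.6 ± 88.7 (SD, n = 3). In pool 2 Slc35c2 barely passed, at 469.4 against a limit of 468.3. Of the 10 family 35 genes, 3 were above background on every array and 4 on some.

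Among carriers of organic solutes and vitamins, 7 of 30 genes were above background on every array and 21 on none. Slc23a2, which takes up ascorbate, read 1203, 1043 and 1308. Slc19a1, the reduced folate carrier, read 802, 857 and 654, and its second set, of the _f_at kind, passed the limit only in pool 1. Slc22a17, a receptor for lipocalin 2, read 3371, 2440.2 and 3280.2 and was the only 1 of 10 measured family 22 genes, mostly known as drug and organic ion carriers of kidney and liver, above background on any array. Slc27a1, which brings in fatty acids, was highest in pool 1, at 1180.1, 649 and 628. Choline carrier Slc44a1 stood at 826 ± 49.1 and its relative Slc44a4 at 541 ± 29.4 (SD, n = 3), with ranges of 1.12-fold and 1.11-fold. Slc23a3 was above background only on an _r_at set, at 856, 608 and 600.1, and its plain set was above it in no pool. All 4 family 10 genes, which include the bile acid carriers of liver and gut, were above background on none. Slc20a1, a phosphate carrier, was the 1 of 5 genes for vesicle amine and phosphate carriers above background on every array, at 828, 994 and 554.

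Between these groups stood 25 carrier genes above background on 1 or 2 arrays. Of these, 14 passed the limit in pool 3 alone, where the limit was lowest, and 7 in pools 1 and 3. Over all 12422 probe sets the share above the limit was also highest in pool 3, at 35.73%, 32.97% and 39.61%. For the 184 carrier sets these shares were 32.07%, 29.35% and 40.76%, so both were lowest in pool 2. The split by pool of genes above background on 1 or 2 arrays was not made for all named genes. The following were named after their values were seen. Slc9a3r1, a scaffold protein that binds carriers, read 478, 298 and 523, Slc35g3 read 663, 413 and 673 and Slc39a9, a zinc importer, read 474, 341 and 370.2, each lowest in pool 2 and below its limit there. Slc30a9 and Slc35d1, a nucleotide-sugar carrier, passed in pools 2 and 3, at 355, 646 and 379.6 and 312, 516 and 387. Slc29a1, the nucleoside carrier, passed in pool 3 alone, at 366, 271 and 499, as did Slc50a1, a sugar carrier, at 388, 451 and 465, and Slc5a6, a carrier of vitamins, at 280.5, 189.5 and 385.

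**Figure D2:**
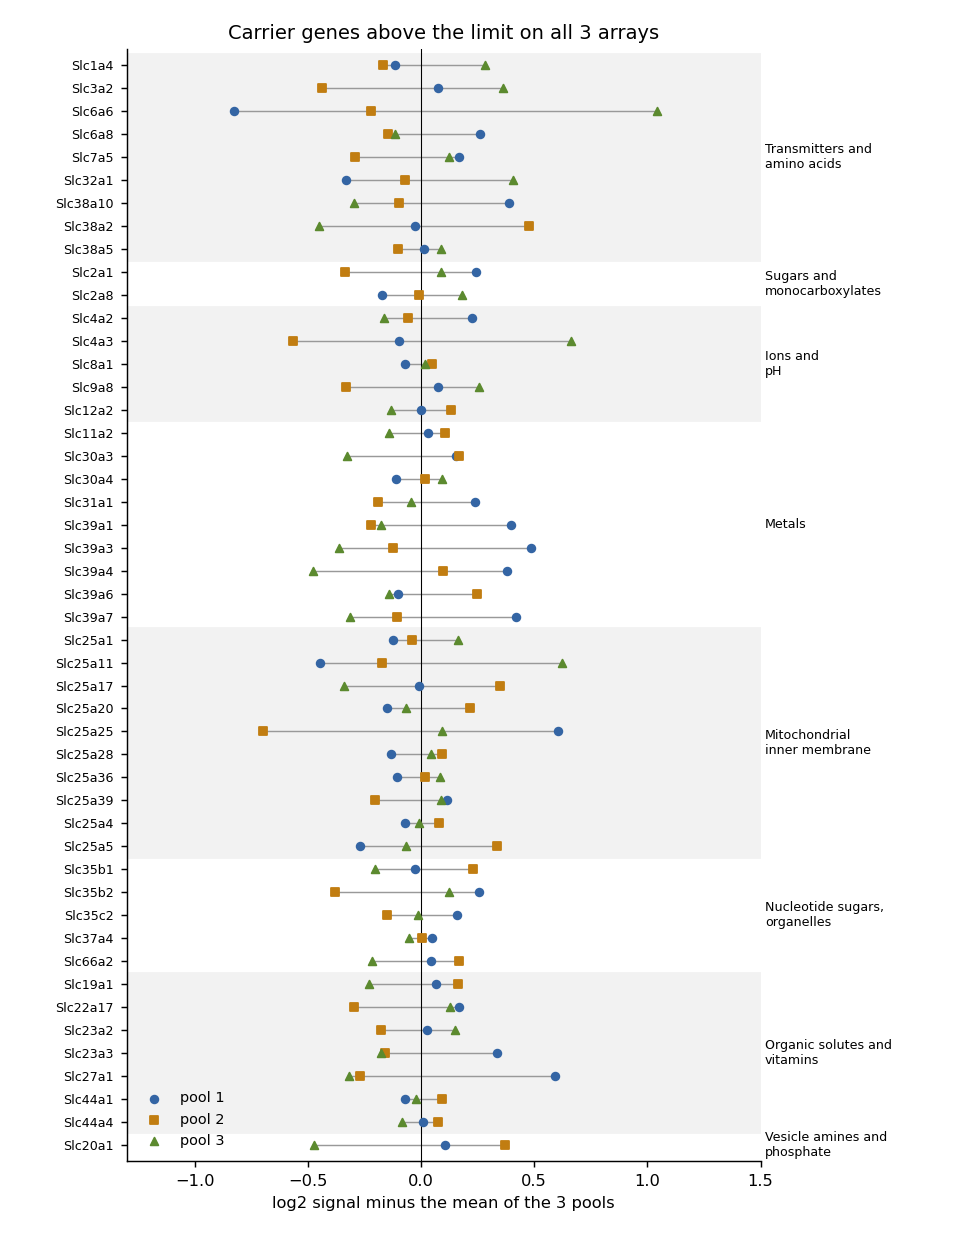
Each row is 1 of the 48 carrier genes above background on all 3 arrays, and the horizontal axis gives the log2 signal of each pool minus the mean of the 3 pools, with lines spanning the range. Slc6a6 spans the widest range, 1.87 log2 units, and Slc37a4 the narrowest, 0.099.

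The spread between pools was close to that of the array as a whole. Over the 57 carrier probe sets above the limit on average, the median SD of log2 signal was 0.25 and the median range 1.38-fold, beside 0.26 and 1.41-fold over all 4445 such probe sets. Over the 127 carrier sets not above it on average the median SD was 0.61, beside 0.63 over 7977. Dim sets were repeated less closely than bright ones in both. Across the 184 carrier sets Pearson's r of log2 signal was 0.86 for pools 1 with 2, 0.87 for 1 with 3 and 0.85 for 2 with 3, beside 0.90, 0.88 and 0.87 over all probe sets. These correlations run over genes on shared arrays and are given as a description.

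**Figure D3:**
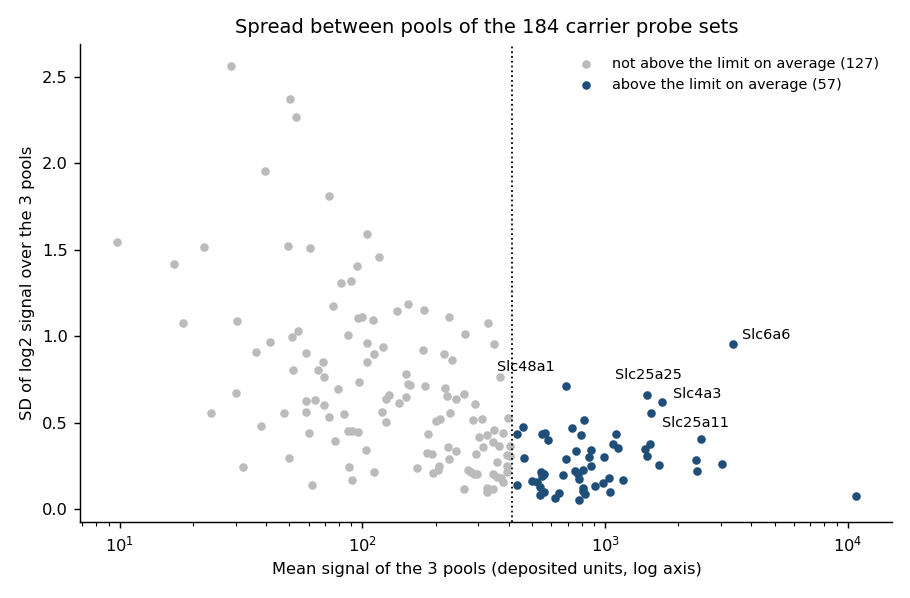
SD of log2 signal over the 3 pools (vertical axis) against the mean signal (horizontal log axis) for the 184 carrier probe sets, with the mean background limit as a dotted line. Most sets above it, drawn in blue, lie under an SD of 0.5, and the 5 with a range over 1 log2 unit are named.

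Highs and lows of the carriers were spread over all 3 pools. Of the 57 carrier sets above the limit on average, 19 were highest in each pool (33.3%), where 33.9%, 33.8% and 32.2% of all such probe sets were highest in pools 1, 2 and 3. Lowest in pools 1, 2 and 3 were 17, 21 and 19 of them, where the shares over all such sets were 28.1%, 35.4% and 36.4%. The median log2 shift from the mean of the pools was 0.044, -0.096 and -0.0076 for the carriers, and 0.026, -0.0021 and -0.016 for all sets. The shift of pool 2 rested on which pools it was set against, and was -0.019 without pool 1 and -0.027 without pool 3.

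A range over 1 log2 unit (2-fold) was found for 5 of these 57 carrier sets, 8.77%, beside 10.9% of all 4445 sets above the limit on average. With sets above background on all 3 arrays the count was 4 of 49, 8.16%, beside 6.72% of all 3658 such sets. The 5 were Slc6a6, Slc4a3, Slc25a11, Slc25a25 and Slc48a1, the last named after its values were seen because it was not above background in pool 2. Without pool 3 the count was 2, Slc25a25 and Slc48a1. Slc6a6 and Slc25a11 had their low in pool 1 and their high in pool 3, as had the summed markers of rods, bipolar and amacrine cells, Müller glia and pigment epithelium. Summed cone markers also had their low in pool 1 but their high in pool 2, at 2542, 3292 and 3264.5 over 3 genes. A sum is led by its brightest sets, and of the rod genes Pdc was highest in pool 2, at 21088, 23619 and 21313, and Rcvrn lowest in pool 2, at 3146, 2429 and 8726. In the other lists Rlbp1, Clu, Gad1, Pax6, Trpm1 and Pcp2 had the order of Slc6a6. Apoe (6300, 5295 and 8269), Calb2 (3356, 2922 and 6149), Aqp4 and Pmel were lowest in pool 2, and Glul and Prkca in pool 3. Gad2, Vim, Rgr, Ttr and Tyrp1, above background on no array, were highest in pool 2, and Tyr was lowest there. Pmel was the only pigment epithelium marker above background on any array, at 508, 348 and 777. Slc4a3 had its low in pool 2 and its high in pool 3, as had the summed markers of lens and of ganglion, horizontal and endothelial cells. Ganglion markers summed to 3617, 2964 and 4988 over 4 genes and horizontal cell markers to 1370.2, 1176 and 1538 over 3. Nefl, Nefm and Thy1 of the ganglion genes had the order of Slc4a3, and Sncg was lowest in pool 1. None of the 3 horizontal cell genes had that order or was above background on every array. Calb1 (264.5, 452 and 644) was lowest in pool 1, Lhx1 was lowest in pool 3, and Prox1 (794, 396 and 719) was highest in pool 1. All 7 lens genes were above background in pools 1 and 3 and 5 in pool 2. Slc25a25 and Slc48a1 had their low in pool 2 and their high in pool 1, the order of the summed red blood cell markers, of which Alas2 and Epb42 were above background in no pool. Müller glia markers summed to 10862, 11072 and 15893 over 6 genes, 4 of them above background on every array. Endothelial and mural markers summed to 1673, 1661 and 2884 over 6 genes, nearly equal in pools 1 and 2, with 1 above background on every array. That gene, Kdr, was lowest in pool 1, at 728, 854 and 1143, as was Pecam1, whereas Cldn5 had the order of Slc4a3. Summed markers of fibroblasts, microglia and astrocytes had the order of none of the 5 carriers. What part these tissues had in the 5 carriers was not tested. Among all 483 probe sets with such a range, 26.1% had the order of Slc4a3, 18% that of Slc25a25 and 11.2% that of Slc6a6.

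**Figure D4:**
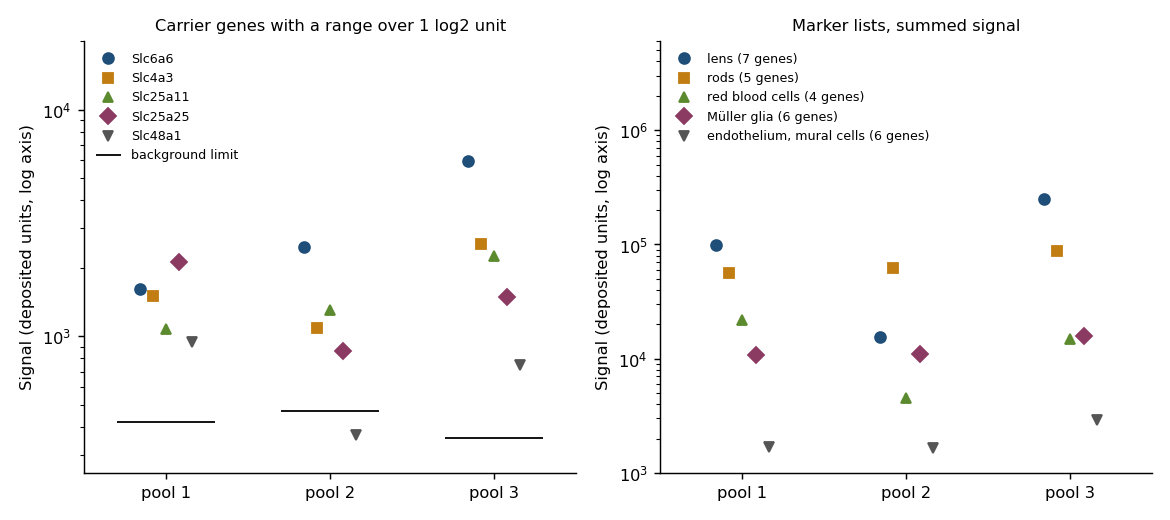
Signal by pool on log axes for the 5 carriers with a range over 1 log2 unit (left, with the background limit of each array as a bar) and summed signal of 5 marker lists (right). Slc6a6 reached 5939 in pool 3 against 1626 in pool 1, and lens markers 248553 in pool 3 against 15618 in pool 2.

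Promoters are shown for 3 of these carriers and for Slc25a4, a closely repeated one, so that the sequence before the start of carriers with a wide range can be read beside that of one with a narrow range. Each is the 250 bases before an annotated transcript start in RefSeq on GRCm38.p6, on the strand of the gene, and 123 of the 150 carrier genes had at least 1 window in the table used. Capitals mark matches on either strand to any of 5 motifs, which do not overlap in the windows printed. They are TATAA as the core of a TATA box, CCAAT as the CCAAT box itself, GGGCGG as a GC box, TGACGTCA as a cAMP response element and TAATCC as a site of the photoreceptor factor Crx. Slc25a25 has 3 windows, and the most downstream is printed because it holds a cAMP response element. The others hold none: window 1, the most upstream, has 3 CCAAT boxes and 1 GC box, and window 2 has 2 CCAAT boxes. Slc6a6 had no window.
Slc4a3, chr1:75546212-75546461, plus strand: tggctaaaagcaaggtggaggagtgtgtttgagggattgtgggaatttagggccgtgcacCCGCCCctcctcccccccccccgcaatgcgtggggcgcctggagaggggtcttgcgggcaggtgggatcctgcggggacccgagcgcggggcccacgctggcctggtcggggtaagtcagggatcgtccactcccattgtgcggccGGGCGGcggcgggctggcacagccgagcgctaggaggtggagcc
Slc25a11, chr11:70647040-70647289, minus strand: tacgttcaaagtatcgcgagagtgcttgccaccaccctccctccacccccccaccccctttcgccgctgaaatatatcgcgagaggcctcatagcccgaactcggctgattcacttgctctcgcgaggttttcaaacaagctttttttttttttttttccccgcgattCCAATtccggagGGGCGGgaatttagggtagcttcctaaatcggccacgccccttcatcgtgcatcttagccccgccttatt
Slc25a25, chr2:32424067-32424316, minus strand: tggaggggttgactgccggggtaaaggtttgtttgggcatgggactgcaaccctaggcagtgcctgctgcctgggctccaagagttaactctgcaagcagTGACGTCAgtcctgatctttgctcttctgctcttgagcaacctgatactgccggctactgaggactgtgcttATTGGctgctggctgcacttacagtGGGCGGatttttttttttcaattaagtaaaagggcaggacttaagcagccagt
Slc25a4, chr8:46211063-46211312, minus strand: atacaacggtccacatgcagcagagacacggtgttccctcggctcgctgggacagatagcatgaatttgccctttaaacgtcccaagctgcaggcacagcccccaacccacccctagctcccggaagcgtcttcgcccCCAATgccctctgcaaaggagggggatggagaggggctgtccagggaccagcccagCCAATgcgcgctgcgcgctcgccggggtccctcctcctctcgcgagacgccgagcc

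The Slc4a3 window held 2 GC boxes and no other motif searched, and it was the richest in G and C of the 4 printed, at 70%. That of Slc25a11 held a CCAAT box and a GC box, at 53.2% G and C. The Slc25a25 window held a cAMP response element, a CCAAT box on the reverse strand and a GC box. The Slc25a4 window held 2 CCAAT boxes. No printed window held the Crx-type site. Over the 172 windows of carrier genes, 55.2% held a GC box, beside 42.6% of 21263 windows of protein-coding genes and 32.7% of all 32851 windows. A TATA box core was in 14.5%, 20.3% and 22.8% of the same sets, and CCAAT in 27.3%, 35.4% and 33.8%. The cAMP response element was in 2 carrier windows, 1.16%, beside 1.92% of coding and 1.55% of all windows, and the Crx-type site in 4.65%, 5.82% and 6.25%. Windows of 1 gene can overlap, and a match of letters shows neither binding nor a cause.

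Genes with several probe sets showed how far a carrier signal depended on the probes. Of 29 genes with 2 or more sets, 17 had at least 1 set above background on every array. In 12 of these 17 another set of the same gene was above it on no array, and in 4 the others passed the limit only on some arrays. Over all 2073 named genes with several sets, 957 (46.2%) had such a set, beside 58.6% of the carriers. In 600 of the 957 (62.7%) another set was above background on no array, beside 70.6% of the 17 carriers. In 147 of the 957 (15.4%) the others passed only on some arrays, beside 23.5% of the 17 carriers. Plain _at sets of Slc6a8 read 964, 729 and 745 and 139, 51.5 and 175, so the disagreement is not limited to suffixed sets. The same held for Slc39a1, at 1127, 736 and 758 and 106, 81.6 and 77.2. Of the 26 carrier sets with a suffix other than plain _at, 3 were above background on every array and 20 on none. For the 158 plain sets these counts were 46 and 83. The same split was not made over all probe sets, so it cannot be read as particular to carriers. With the probe sets of a gene averaged, 35 carrier genes were above background on every array in place of 48.

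**Figure D5:**
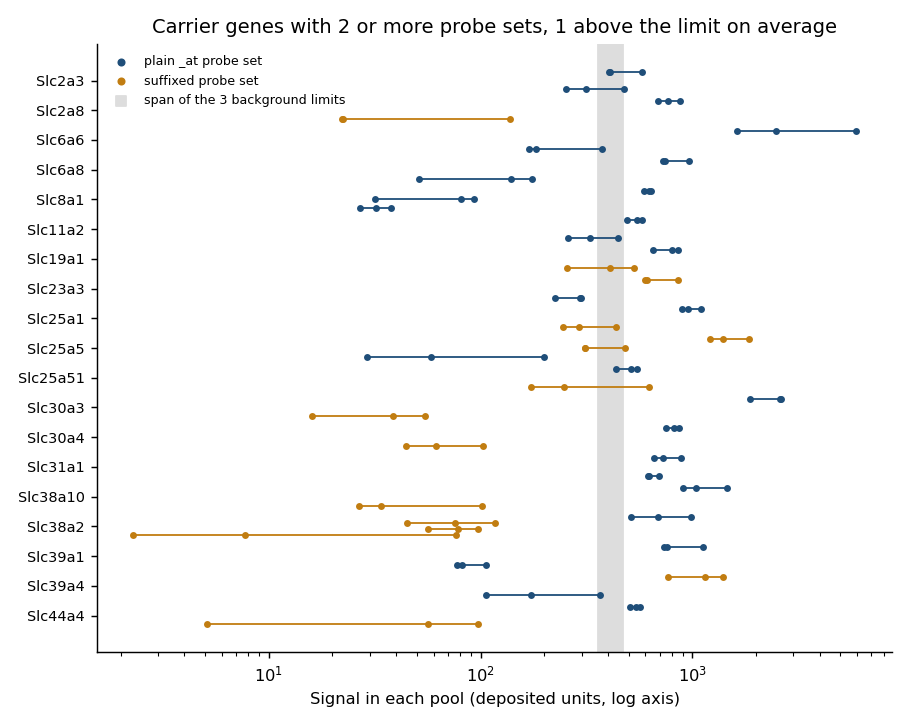
Signal in each pool (horizontal log axis) for every probe set of the carrier genes with 2 or more sets of which at least 1 was above the limit on average, with a line spanning the pools, and the span of the 3 background limits shaded. Most genes have 1 set to the right of the shaded span and another to its left.

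Pumps, enzymes and partner proteins that work with carriers were read from a separate list. Of its 26 measured genes, 18 were above background on every array and 3 (Atp2b2, Vdac1 and Slco3a1) on none. Over all 8251 named genes these shares were 36.1% and 48.5%. The list was chosen with earlier results of these data known, so the count is a description of the genes chosen. Of the vesicular proton pump that powers vesicle loading, 3 subunits were measured, with Atp6v1b2 at 5857, 6504 and 7118, Atp6v0d1 at 3651, 2969.6 and 3166 and Atp6v1a at 3779, 4751 and 5881. Their ranges were 1.22-fold, 1.23-fold and 1.56-fold. Atp1b2, a subunit of the sodium pump that drives most plasma membrane carriers, was highest in pool 1, at 2508, 1632 and 741, whereas Atp1b3 was highest in pool 3, at 1864, 1796 and 3549. Glul, which turns captured glutamate into glutamine, read 1040.2, 1492 and 785 on an _r_at set.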

How the data were processed

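The authors deposited 1 linear signal intensity for each of 12488 probe sets on 3 Affymetrix U74Av2 arrays, named in the titles per the labels. Software and the method of condensing probes are not given in the sources used here. Means after trimming 2% at each end were 500.3, 500.2 and 500.3, within the 5% allowed, so values were used as deposited. No detection call was available, and the number of arrays limits the precision. Platform annotation from GEO, now old, gave the gene symbols, and all 184 member sets matched a RefSeq gene table with no change of symbol. Values below 1 were set to 1 before log2. The background limit, the range over 1 log2 unit and the SD over pools were computed with Python 3.11.15, pandas 2.3.3 and scipy 1.17.1. The range call was run on simulated data with noise far below the median spread measured here. That run checks the code and not how often the call errs in these data, and the background calls were not tested. A gene is represented by its set with the highest mean. The members, lists, rules and alternatives were chosen with earlier results of these data known. Genes were named by a rule: a list of retinal carriers, of which 36 of 56 had a member set, carriers with a wide or narrow range, genes with several sets, the members above background in each family and a list of 36 partner genes. Roles are textbook background. The substrate classes of families 51 and 66 were added after the data were seen.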

Additional observations from a re-analysis of the deposited data

How the results depend on the processing

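The alternatives were other background limits, scalings, probe set choices and floors, and leaving out each pool. They gave 88 recomputed values, of which 82 stayed within 1.5 times for a count or SD, or within 0.071 log2 units (the SD of the 3 shifts) for a shift. Some of the 82 carry no information, because no member symbol changed with the update and a floor of 32 returned the main values. The allowance for a shift is wider than the shifts of pools 1 and 3, so a change of sign could pass. With the limit at the 75th percentile these were -0.026 and 0.050, in place of 0.044 and -0.0076. With the limit at the 75th percentile of the restricted sets, 86 carrier probe sets and 78 carrier genes were above it on all arrays, 62 sets were above it on no array, and 19 sets had a range over 1 log2 unit. By construction a lower limit admits more and dimmer sets, and these counts were not made over all probe sets. Leaving out each pool in turn gave 2 to 5 sets with such a range, 2 of them without pool 3, and a shift of pool 2 from -0.027 to -0.019. A range over 2 arrays cannot exceed that over 3. Chosen after seeing the data were a limit from plain _at restricted sets, which gave 51 carrier sets above it on all arrays, and leaving out the 3 genes that are not carriers, which gave 49. No paired analysis was possible because there is 1 group. Signal over background limits what can be said of the 77 genes above it on no array.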
